A study of Mus musculus with 12 samples.

Results

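The angiogenic growth factors described here are 10 secreted proteins that act on blood or lymph vessels, and their mRNAs were measured by RNA-seq in murine BrafV600E melanoma cells. The genes are *Vegfa*, *Vegfb*, *Vegfc*, *Pgf*, *Pdgfa*, *Pdgfb*, *Angpt1*, *Angpt2*, *Angptl4*, and *Apln*. They were chosen by name, with no limit on level or change but with earlier results of these data known. All 10 were found among the 30705 gene names of the deposited table. The cells came from a C57BL/6 mouse with the alleles Braf+/LSL-V600E, Tyr::CreERT2+/o, and p16INK4a-/-, in which the tyrosinase promoter drives the inducible Cre recombinase. All groups share this background. The 4 groups were scramble control cells and 3 lines edited with CRISPR/Cas9, *ptgs1*-KO in the COX-1 gene, *ptgs2*-KO in the COX-2 gene, and *ptges*-KO in the mPGES-1 gene. COX-1 and COX-2 make prostaglandin H2, and mPGES-1 turns it into prostaglandin E2. Each group had 3 samples. Cells were grown in culture with serum and no host, and each line was selected with puromycin and subcloned by limiting dilution. The study describes the 3 samples of a line as subclones in one place and as independent samples in another, so p-values measure the spread between these samples only.

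VEGF family ligands bind VEGF receptors on endothelial cells. VEGF-A is the main driver of vessel sprouting, VEGF-C acts mostly on lymphatic endothelium, and PlGF (*Pgf*) and VEGF-B bind VEGFR-1 (*Flt1*) but not VEGFR-2 (*Kdr*). PDGF-A and PDGF-B act on fibroblasts and pericytes, angiopoietin-1 and angiopoietin-2 bind the endothelial receptor Tie2 (*Tek*), and apelin binds the receptor APJ (*Aplnr*). Several of these genes, *Vegfa*, *Angptl4*, and *Apln* among them, are known targets of hypoxia-inducible factors, and prostaglandin E2 is known to induce *Vegfa* in many cell types.

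The summed values of a sample were 878504 to 903881 RPKM, a read count scaled to transcript length and library depth, and the depth estimated from the steps of low values was 13.3 to 16.9 M reads. *ptgs1*-KO replicate 3 stood apart. The 20 genes with the highest mean over all 12 samples held 29.7% of its summed RPKM, against 21.4% to 25.8% in the other samples. The edited genes had less mRNA in their own lines. *Ptgs1* was at 151 ± 11.5 RPKM (mean ± SD, n = 3) in scramble and 16.0 ± 1.49 in *ptgs1*-KO cells, *Ptgs2* at 761 ± 14.2 and 79.8 ± 4.38 in *ptgs2*-KO cells, and *Ptges* at 77.6 ± 2.43 and 37.1 ± 3.37 in *ptges*-KO cells. The *ptgs1*-KO cells also had less *Ptges*, at 54.5 ± 2.76 RPKM, and less *Ptgs2*, at 598 ± 86.4 RPKM (limma adjusted p = 0.0011 and 0.0386 against scramble). Of 7 melanocyte markers, *Dct*, *Tyrp1*, *Mlana*, and *Sox10* were at 0 in all 12 samples, while *Mitf*, *Tyr*, and *Pmel* were above 0 in all of them, with means of 2.30, 0.699, and 0.520 RPKM. The 7 markers summed to 1.92 to 5.16 RPKM per sample. All 10 endothelial markers had a mean under 1 RPKM, with sums of 0.26 to 0.87 RPKM per sample. In 9 markers of fibroblasts and pericytes, *Dcn* and *Lum* were at 0, and the summed level was 17.8 to 24.1 RPKM in scramble, 24.0 to 35.5 in *ptgs1*-KO, 9.83 to 11.6 in *ptgs2*-KO, and 9.59 to 13.1 in *ptges*-KO samples. Most of that sum was *Pdgfra* and *Pdgfrb*. The 8 leukocyte markers, 3 of them at 0 in all samples, summed to 0.67 to 2.42 RPKM.

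Transcript levels of the 10 genes spanned a wide range. *Pdgfa*, *Vegfb*, and *Vegfa* were the most abundant, with means over all samples of 67.3, 49.6, and 26.0 RPKM, followed by *Apln* at 6.38 RPKM. *Pgf*, *Angpt2*, *Pdgfb*, and *Vegfc* had means of 2.03, 1.40, 1.28, and 1.15 RPKM, and *Angpt1* and *Angptl4* were lowest at 0.258 and 0.133 RPKM. No value was 0. The tests were made with limma on log2(RPKM + 1) over the 11282 genes whose mean reached 1 RPKM, and a gene was counted as changed at an adjusted p under 0.05. On this scale a fold change understates the change of a low gene, so ratios of mean RPKM are given as well. *Angpt1* and *Angptl4* were under the limit, and *Vegfc* and *Pdgfb* passed it only with the group in which each was highest.

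**Figure D1:**
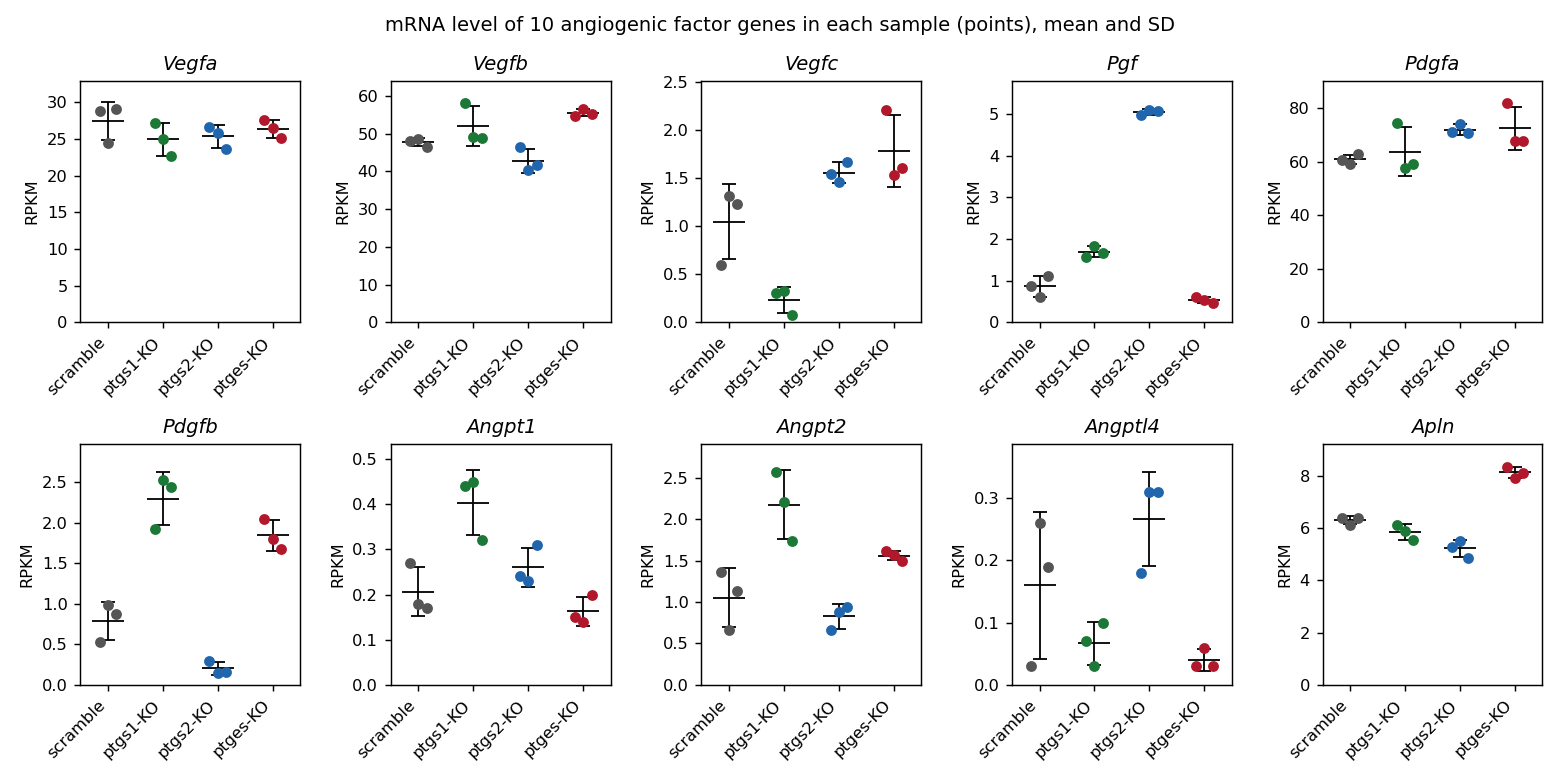
RPKM (vertical axes, each starting at 0 with its own scale) of the 10 genes in each of 12 samples, as points by group, with the mean as a bar and the SD as whiskers (n = 3). The 3 *ptgs2*-KO samples of *Pgf* sit between 4.97 and 5.10 RPKM, above all other samples, while the *Vegfa* values of the 4 groups overlap.

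The promoters of 3 genes whose levels differed between lines are shown, *Pgf* and *Vegfc* for the VEGF family and *Apln*. Each is the stretch of 250 bases upstream of a RefSeq transcription start (GRCm38.p6), printed 5′ to 3′ on the strand of the gene, and windows were found for 6 of the 10 genes. Capitals mark matches on either strand to GCGTG or ACGTG, the core letters of the hypoxia response element, or to GGGCGG, the GC box. The CRE letters TGACGTCA and the AP-1 letters TGACTCA were searched too.
*Pgf*, chr12:85177314-85177563, minus strand: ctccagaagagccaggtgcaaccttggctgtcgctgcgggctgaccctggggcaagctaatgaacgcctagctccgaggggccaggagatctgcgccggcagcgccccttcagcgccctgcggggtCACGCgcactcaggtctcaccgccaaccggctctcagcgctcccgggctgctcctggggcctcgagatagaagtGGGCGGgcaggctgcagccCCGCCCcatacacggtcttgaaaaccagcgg
*Vegfc*, chr8:54077282-54077531, plus strand: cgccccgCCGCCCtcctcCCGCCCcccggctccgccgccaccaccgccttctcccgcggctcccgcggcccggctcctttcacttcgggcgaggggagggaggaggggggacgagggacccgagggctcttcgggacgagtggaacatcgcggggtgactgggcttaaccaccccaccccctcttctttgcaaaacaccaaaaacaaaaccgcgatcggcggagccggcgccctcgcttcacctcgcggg
*Apln*, chrX:48034854-48035103, minus strand: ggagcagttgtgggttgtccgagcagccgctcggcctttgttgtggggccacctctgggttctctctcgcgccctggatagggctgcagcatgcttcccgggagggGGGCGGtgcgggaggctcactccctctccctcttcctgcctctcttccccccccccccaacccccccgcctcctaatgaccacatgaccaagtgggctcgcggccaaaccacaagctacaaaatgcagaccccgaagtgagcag
*Pgf* has a second window, at another start (chromosome 12, 85175983 to 85176232), which held 0 matches to any of these letters and is not shown. The *Pgf* window shown held 1 match to GCGTG and 2 to GGGCGG, the *Vegfc* window 2 to GGGCGG, and the *Apln* window 1 to GGGCGG. Over the 9 windows of the 6 genes, GGGCGG was found in 8, against 32.7% of 32851 windows of all genes. GCGTG was found in 4 (28.2% of all windows) and ACGTG in 1 (16.6%). *Pdgfa*, *Pgf*, and *Vegfa* each gave more than 1 of the 9 windows. The 9 windows were 59.2% to 76.4% G or C, and the shares were not compared at like G and C content. Windows at internal starts lie inside the annotated gene. Both *Pgf* windows, with the one shown, and both *Pdgfa* windows were of this kind, so the GCGTG matches of *Pgf* and *Pdgfa* lie inside those genes. A *Vegfa* window inside its gene (chromosome 17, 46025164 to 46025413) held the 1 ACGTG match and was 1 of the 4 with GCGTG. TGACGTCA and TGACTCA were found in 0 of the 9 windows and in 1.55% and 4.46% of all windows. These are letter matches and do not show that a factor binds there.

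Compared with scramble cells, which all 3 knockouts share as the control, the COX-1 knockout showed changes in several of these genes. *Pdgfb*, *Angpt2*, and *Pgf* rose and *Vegfc* fell in *ptgs1*-KO cells, so 4 of the 8 genes tested changed, beside 9.26% of all genes tested (4.65% higher and 4.61% lower). Of these 4, *Pdgfb* entered the test only through its *ptgs1*-KO samples and *Vegfc* only through its *ptges*-KO samples. In *ptgs2*-KO cells 2 of 8 changed, *Pgf* upward and *Pdgfb* downward, beside 11.1% of all genes tested (5.97% higher and 5.17% lower). In *ptges*-KO cells 2 of 8 (25%) changed, *Pdgfb* and *Apln*, both upward, beside 26.3% of all genes tested (11.9% higher and 14.4% lower). Without the filter on low values, 5, 2, and 2 of all 10 genes changed, beside 6.36%, 7.04%, and 16.1% of 18623 genes. The median log2 fold change of the 10 genes was 0.086 in *ptgs1*-KO, -0.023 in *ptgs2*-KO, and 0.23 in *ptges*-KO cells, and that of all 18623 genes without the filter was 0, 0, and -0.0095. In *ptges*-KO cells the count depended on the scaling of the samples, with 5 of 8 genes changed after median ratio scaling, beside 33.4% of all genes, and 6 of 8 after quantile normalization, beside 30.8%. The counts also depended on single samples, with 1 gene changed in *ptgs1*-KO and 1 in *ptgs2*-KO cells without scramble replicate 2, 2 in *ptgs1*-KO cells without *ptgs1*-KO replicate 2, 1 in *ptgs2*-KO cells without scramble replicate 3 or *ptgs2*-KO replicate 2 or 3, and 4 in *ptges*-KO cells without *ptgs1*-KO replicate 1. In bulk RNA, fewer cells that express a gene and less RNA per cell cannot be told apart.

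**Figure D2:**
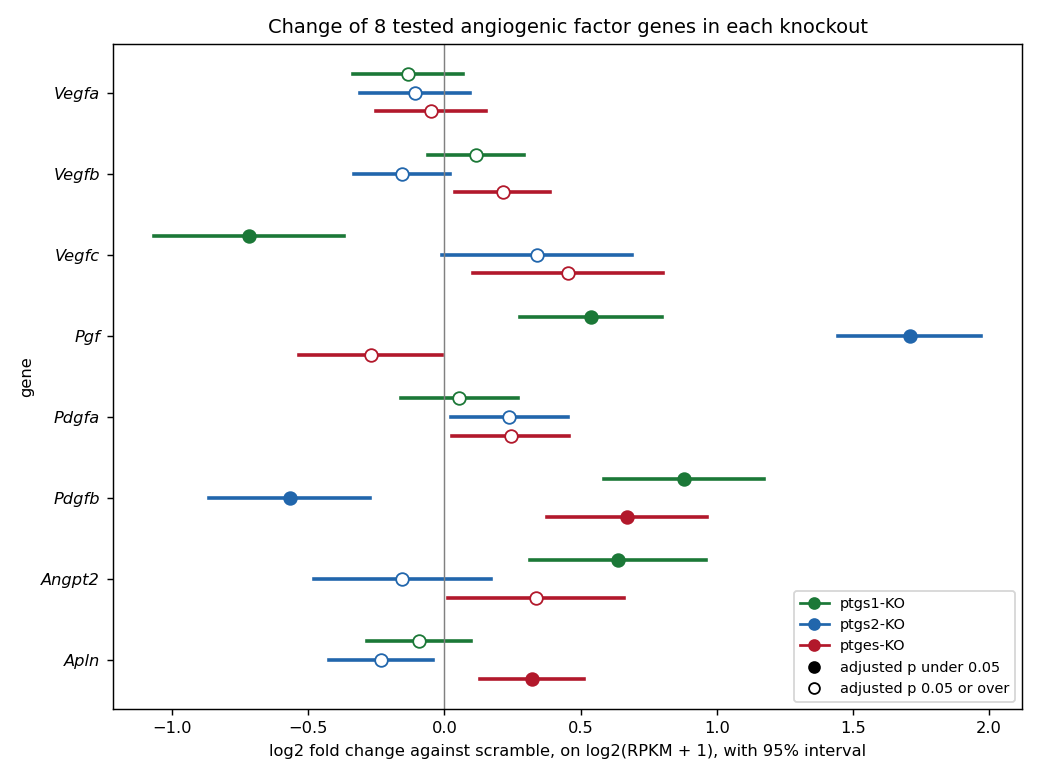
Log2 fold change of the 8 tested genes in each knockout line against scramble cells (horizontal axis, on log2(RPKM + 1)), with lines for the 95% confidence interval and filled points for an adjusted p under 0.05. *Pgf* in *ptgs2*-KO cells lies farthest from 0, at 1.71, and *Pdgfb* lies above 0 in *ptgs1*-KO and *ptges*-KO and below 0 in *ptgs2*-KO cells.

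*Vegfa*, on chromosome 17 (GRCm38, 46016993 to 46032369, minus strand), did not pass the test in any of the 6 comparisons between lines. It was at 28.75, 24.51, and 29.08 RPKM in scramble samples, at 27.14, 25.04, and 22.61 in *ptgs1*-KO, at 26.60, 25.86, and 23.57 in *ptgs2*-KO, and at 27.60, 26.49, and 25.15 in *ptges*-KO samples. The values of all 4 groups overlapped, and the highest group mean was 1.10 times the lowest. The log2 fold changes against scramble were -0.13 in *ptgs1*-KO (95% interval -0.33 to 0.068, adjusted p = 0.43), -0.11 in *ptgs2*-KO (-0.31 to 0.093, adjusted p = 0.489), and -0.050 in *ptges*-KO cells (-0.25 to 0.15, adjusted p = 0.732). The intervals leave room for fold changes down to 0.793 and up to 1.11. With about 639 to 881 reads per sample, *Vegfa* was measured with a coefficient of variation of 4.64% to 9.29% within groups.

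*Vegfb* (chromosome 19, 6982473 to 6987651, minus strand), the ligand linked to fatty acid uptake and vessel survival, was the most abundant mRNA of its family. Its values were 48.15, 48.64, and 46.63 RPKM in scramble, 58.16, 49.12, and 48.95 in *ptgs1*-KO, 46.45, 40.51, and 41.59 in *ptgs2*-KO, and 54.82, 56.61, and 55.28 in *ptges*-KO samples. All *ptges*-KO and *ptgs1*-KO samples lay above and all *ptgs2*-KO samples below the scramble samples, with gaps that were narrow for both *ptgs1*-KO and *ptgs2*-KO. None of the comparisons with scramble passed the test (log2 fold changes of 0.12, -0.16, and 0.21 for the COX-1, COX-2, and mPGES-1 knockouts, adjusted p = 0.428, 0.236, and 0.07). *Vegfb* in *ptges*-KO cells exceeded the *ptgs2*-KO level by 0.37 (adjusted p = 0.00742). The lower level in *ptgs2*-KO than in *ptgs1*-KO cells (-0.27, adjusted p = 0.0268) was lost without *ptgs1*-KO replicate 1, *ptgs2*-KO replicate 2, or *ptgs2*-KO replicate 3 (adjusted p = 0.0966, 0.107, and 0.0858). It was also lost with only both groups in the model (0.101). For *ptges*-KO against scramble the adjusted p was 0.0365 without *ptgs1*-KO replicate 1 and 0.0164 after median ratio scaling.

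*Vegfc* (chromosome 8, 54077606 to 54187096, plus strand) was lowest in *ptgs1*-KO cells. It was at 0.60, 1.31, and 1.23 RPKM in scramble samples, at 0.30, 0.32, and 0.08 in *ptgs1*-KO, at 1.54, 1.46, and 1.67 in *ptgs2*-KO, and at 2.21, 1.53, and 1.60 in *ptges*-KO samples. The *ptgs1*-KO samples lay below all others, and the *ptgs2*-KO and *ptges*-KO samples overlapped each other and lay above the scramble samples. The mean in *ptgs1*-KO cells was 0.223 times that in scramble cells (log2 fold change -0.72, SE 0.16, adjusted p = 0.0132). *Vegfc* was also lower in *ptgs1*-KO than in *ptgs2*-KO and *ptges*-KO cells, which were higher by 1.06 (adjusted p = 0.000386) and 1.17 (adjusted p = 0.000136). *Vegfc* entered the test only through the *ptges*-KO samples. With no filter on low values the adjusted p of *ptges*-KO against *ptgs1*-KO cells was 0.000333. The values of 0.34 in *ptgs2*-KO and 0.45 in *ptges*-KO against scramble did not pass (adjusted p = 0.197 and 0.0548), nor did the difference between those lines (0.11, 95% interval -0.24 to 0.46, adjusted p = 0.679). These levels rest on about 3 to 87 reads, and the fall in *ptgs1*-KO cells was lost without scramble replicate 2 or 3 (adjusted p = 0.0625 and 0.0565). The adjusted p of *ptges*-KO against scramble was 0.047 without scramble replicate 2, 0.0494 without *ptgs1*-KO replicate 3, 0.0346 after median ratio scaling, and 0.015 after quantile normalization.

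*Pgf* (chromosome 12, 85166635 to 85177790, minus strand), which encodes placental growth factor, had the widest range of group means on the log2(RPKM + 1) scale among the 8 genes tested. Its values were 0.88, 0.60, and 1.10 RPKM in scramble, 1.57, 1.83, and 1.66 in *ptgs1*-KO, 4.97, 5.10, and 5.06 in *ptgs2*-KO, and 0.60, 0.54, and 0.46 in *ptges*-KO samples. The *ptgs2*-KO samples were highest, the *ptgs1*-KO samples came next, and the *ptges*-KO samples met the lowest scramble sample at 0.60 RPKM. The mean rose 5.86-fold in *ptgs2*-KO (log2 fold change 1.71, SE 0.12, adjusted p = 1.16e-06) and 1.96-fold in *ptgs1*-KO cells (0.54, SE 0.12, adjusted p = 0.0133). In *ptges*-KO cells the log2 fold change was -0.27 (95% interval -0.53 to -0.0086, adjusted p = 0.119). *ptges*-KO cells had less *Pgf* than *ptgs2*-KO cells by a log2 difference of -1.98 (adjusted p = 1.68e-07) and than *ptgs1*-KO cells by -0.81 (adjusted p = 0.000266), and *ptgs2*-KO cells had more than *ptgs1*-KO cells by 1.17 (adjusted p = 1.46e-05). The rise in *ptgs2*-KO cells held in all 20 alternative analyses in which it was tested. That in *ptgs1*-KO cells was lost without scramble replicate 2 (adjusted p = 0.0577), without *ptgs1*-KO replicate 2 (0.0513), and with only both groups in the model (0.0797), and the *ptges*-KO value passed without scramble replicate 2 (0.0477).

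Of the summed RPKM of the 4 VEGF family genes described here, *Vegfa* and *Vegfb* together held 97.5% ± 0.552 in scramble cells (SD, n = 3). Their share was 97.6% ± 0.342 in *ptgs1*-KO, 97.3% ± 0.482 in *ptges*-KO, and 91.2% ± 0.603 in *ptgs2*-KO cells. *Pgf* made up 1.11% ± 0.305 of the sum in scramble and 6.76% ± 0.445 in *ptgs2*-KO cells, and its ratio to *Vegfa* was 0.0310 ± 0.00668 and 0.200 ± 0.0141. The *ptgs2*-KO samples had the lowest share of *Vegfa* and *Vegfb* in this sum, while *Pgf* remained a minor transcript in all lines. VEGF-D, listed as *Figf*, is not among the 10 genes and was left out of the sum. Its means were 12.3 RPKM in scramble, 16.2 in *ptgs1*-KO, 10.5 in *ptgs2*-KO, and 9.63 in *ptges*-KO cells, above those of *Pgf* and *Vegfc* in each line. The shares are thus not those of the whole family.

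*Pdgfa* (chromosome 5, 138976014 to 138997370, minus strand), a ligand of the PDGF receptor alpha, was the most abundant of the 10 genes. It was at 60.76, 59.28, and 62.70 RPKM in scramble, at 74.29, 57.67, and 59.15 in *ptgs1*-KO, at 71.16, 74.20, and 70.68 in *ptgs2*-KO, and at 81.85, 67.92, and 67.81 in *ptges*-KO samples. All *ptgs2*-KO and *ptges*-KO samples lay above the scramble samples, and the *ptgs1*-KO samples spread across both. No comparison passed the test, with log2 fold changes against scramble of 0.055 in *ptgs1*-KO, 0.24 in *ptgs2*-KO, and 0.24 in *ptges*-KO cells (adjusted p = 0.796, 0.145, and 0.091). The difference between *ptges*-KO and *ptgs2*-KO cells was 0.0048 (95% interval -0.21 to 0.22, adjusted p = 0.981). Without *ptgs1*-KO replicate 1, the sample with 74.29 RPKM, the adjusted p was 0.0388 for *ptges*-KO against scramble, 0.0265 for *ptges*-KO against *ptgs1*-KO, and 0.0321 for *ptgs2*-KO against *ptgs1*-KO cells. An antisense transcript overlaps exons of *Pdgfa*, and another those of *Angpt1*, and whether strand was used in the counting is not given in the sources used here.

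*Pdgfb* (chromosome 15, 79995874 to 80014977, minus strand), whose product recruits pericytes to vessels through PDGF receptor beta, moved in opposite directions in the COX-1 and COX-2 knockouts. It was at 0.53, 0.98, and 0.87 RPKM in scramble, at 1.92, 2.52, and 2.44 in *ptgs1*-KO, at 0.30, 0.15, and 0.16 in *ptgs2*-KO, and at 2.05, 1.80, and 1.68 in *ptges*-KO samples. The *ptgs2*-KO samples lay below and the *ptgs1*-KO and *ptges*-KO samples above all scramble samples, and the latter lines overlapped each other. The mean rose 2.89-fold in *ptgs1*-KO (log2 fold change 0.88, SE 0.14, adjusted p = 0.00103) and 2.32-fold in *ptges*-KO cells (0.67, SE 0.14, adjusted p = 0.00323), and fell to 0.256 times the scramble mean in *ptgs2*-KO cells (-0.57, SE 0.14, adjusted p = 0.0172). *Pdgfb* entered the test only through the *ptgs1*-KO samples. With no filter on low values the adjusted p of its rise in *ptgs1*-KO cells was 0.000911. *Pdgfb* was lower in *ptgs2*-KO than in *ptgs1*-KO cells by a log2 difference of -1.45 (adjusted p = 5.92e-06) and 1.24 higher in *ptges*-KO cells than there (adjusted p = 3.68e-05). The difference of -0.21 between *ptges*-KO and *ptgs1*-KO cells did not pass (95% interval -0.50 to 0.085, adjusted p = 0.27). The level in *ptgs2*-KO cells came from as few as about 7 reads, and its fall was lost without scramble replicate 2 or 3 or *ptgs2*-KO replicate 2 or 3 (adjusted p = 0.0715, 0.0597, 0.0601, and 0.0604). *Pdgfb* made up 1.29% ± 0.387 of the summed RPKM of the pair *Pdgfa* and *Pdgfb* in scramble cells, 3.56% ± 0.905 in *ptgs1*-KO, 0.283% ± 0.120 in *ptgs2*-KO, and 2.48% ± 0.0883 in *ptges*-KO cells (SD, n = 3).

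*Angpt2* (chromosome 8, 18690263 to 18741562, minus strand), the angiopoietin that in many settings opposes angiopoietin-1 at Tie2, was highest in *ptgs1*-KO cells. It was at 1.36, 0.66, and 1.13 RPKM in scramble, at 2.57, 2.21, and 1.74 in *ptgs1*-KO, at 0.66, 0.88, and 0.94 in *ptgs2*-KO, and at 1.61, 1.57, and 1.50 in *ptges*-KO samples. The *ptgs1*-KO samples lay above all others, the *ptges*-KO samples lay above the scramble samples, and *ptgs2*-KO and scramble samples overlapped. The mean rose 2.07-fold in *ptgs1*-KO cells (log2 fold change 0.64, SE 0.15, adjusted p = 0.0168). The values in *ptgs2*-KO and *ptges*-KO cells were -0.15 and 0.34 (adjusted p = 0.542 and 0.118). *Angpt2* was lower in *ptgs2*-KO than in *ptgs1*-KO cells by -0.79 (adjusted p = 0.00181) and 0.49 higher in *ptges*-KO cells than there (adjusted p = 0.0407). The rise in *ptgs1*-KO cells was lost without scramble replicate 2 (adjusted p = 0.0715), *ptgs1*-KO replicate 1 (0.0686), or *ptgs1*-KO replicate 2 (0.0524). It was also lost with only both groups in the model (0.0596). The difference between *ptges*-KO and *ptgs2*-KO cells was lost without any 1 of the samples of those lines, without scramble replicate 3, and without *ptgs1*-KO replicate 2 (adjusted p = 0.052 to 0.151).

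*Angpt1* (chromosome 15, 42424723 to 42676977, minus strand), which stabilizes vessels through Tie2, was near the limit of these libraries. It was at 0.27, 0.18, and 0.17 RPKM in scramble, at 0.44, 0.45, and 0.32 in *ptgs1*-KO, at 0.24, 0.23, and 0.31 in *ptgs2*-KO, and at 0.15, 0.14, and 0.20 in *ptges*-KO samples, or about 10 to 28 reads. The *ptgs1*-KO samples lay just above all others. With no filter on low values, *ptgs1*-KO cells were higher than scramble cells (ratio of means 1.95, log2 fold change 0.22, adjusted p = 0.0214), and *ptges*-KO cells were lower than *ptgs1*-KO cells (-0.27, adjusted p = 0.00273). The ratio of *Angpt2* to *Angpt1* was 5.12 ± 1.49 in scramble, 5.40 ± 0.466 in *ptgs1*-KO, 3.20 ± 0.558 in *ptgs2*-KO, and 9.82 ± 2.02 in *ptges*-KO cells (SD, n = 3), and was not tested.

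*Angptl4* (chromosome 17, 33773750 to 33781830, minus strand), an inhibitor of lipoprotein lipase that also acts on vessels, was the least abundant of the 10 genes. It was at 0.03, 0.26, and 0.19 RPKM in scramble, at 0.07, 0.03, and 0.10 in *ptgs1*-KO, at 0.18, 0.31, and 0.31 in *ptgs2*-KO, and at 0.03, 0.06, and 0.03 in *ptges*-KO samples, or at most about 16 reads. The *ptgs2*-KO samples lay above the *ptgs1*-KO and *ptges*-KO samples, and the scramble samples overlapped all other groups. With no filter on low values, *Angptl4* was higher in *ptgs2*-KO than in *ptgs1*-KO cells (log2 difference 0.25, adjusted p = 0.033) and in *ptges*-KO cells it was below the *ptgs2*-KO level (-0.28, adjusted p = 0.0245), on counts too few to give the size of these differences.

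*Apln* (chromosome X, 48025146 to 48034853, minus strand), which encodes the vessel peptide apelin, was highest in *ptges*-KO cells. It was at 6.38, 6.13, and 6.41 RPKM in scramble, at 6.12, 5.89, and 5.53 in *ptgs1*-KO, at 5.29, 5.52, and 4.86 in *ptgs2*-KO, and at 8.35, 7.94, and 8.12 in *ptges*-KO samples. None of the 4 groups overlapped another, although *ptgs1*-KO samples came within 0.01 RPKM of both scramble and *ptgs2*-KO samples. The mean rose 1.29-fold in *ptges*-KO cells (log2 fold change 0.32, SE 0.088, adjusted p = 0.0172), which also had more *Apln* than *ptgs1*-KO (0.42, adjusted p = 0.00333) and *ptgs2*-KO cells (0.56, adjusted p = 8e-04). The values of -0.095 in *ptgs1*-KO and -0.23 in *ptgs2*-KO cells against scramble did not pass (adjusted p = 0.571 and 0.111). Without scramble replicate 2 the adjusted p of the rise was 0.0532, and after median ratio scaling that of *ptgs2*-KO against scramble cells was 0.0323.

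Between knockout lines, 5 of the 8 genes tested differed for *ptgs2*-KO against *ptgs1*-KO cells, beside 23.6% of all genes tested. *Pgf* and *Vegfc* were higher (12.1% of all genes) and *Pdgfb*, *Angpt2*, and *Vegfb* lower (11.6%) in *ptgs2*-KO cells. For *ptges*-KO against *ptgs1*-KO cells 3 of 8 differed, beside 30.2% of all genes tested, with *Vegfc* and *Apln* higher (13.2%) and *Pgf* lower (17.0%). For *ptges*-KO against *ptgs2*-KO cells 5 of 8 differed, beside 16.6%, with *Pdgfb*, *Apln*, *Vegfb*, and *Angpt2* higher (6.76%) and *Pgf* lower (9.84%). With no filter, 6, 4, and 6 of all 10 genes differed, beside 15.0% of genes for the first, 19.0% for the second, and 10.0% for the third comparison. The fibroblast and pericyte marker sums given above were higher in *ptgs1*-KO than in the other two knockouts and overlapped between those, and their part in these results was not tested.

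The receptors of these ligands were examined next, as a list of 10 genes. *Kdr*, *Flt4*, and *Tie1* were listed at 0 in all 12 samples, *Tek* reached at most 0.16 and *Aplnr* at most 0.06 RPKM, and 5 were tested. *Flt1*, the receptor of VEGF-A, VEGF-B, and PlGF, was at 21.64, 25.26, and 25.64 RPKM in scramble, at 41.35, 35.56, and 32.15 in *ptgs1*-KO, at 14.72, 12.83, and 10.83 in *ptgs2*-KO, and at 16.71, 12.46, and 12.05 in *ptges*-KO samples. All *ptgs1*-KO samples lay above and all *ptgs2*-KO and *ptges*-KO samples below scramble. *Flt1* rose in *ptgs1*-KO (log2 fold change 0.57, SE 0.14, adjusted p = 0.0227) and fell in *ptgs2*-KO (-0.87, adjusted p = 0.00157) and *ptges*-KO cells (-0.78, adjusted p = 0.00149). *Nrp1*, a co-receptor for VEGF-A and semaphorins, was at 4.19, 4.61, and 4.55 RPKM in scramble and at 1.38, 1.57, and 1.57 in *ptgs1*-KO samples. It fell in *ptgs1*-KO cells (-1.12, SE 0.12, adjusted p = 6.54e-05) and was at 0.23 in *ptgs2*-KO and -0.12 in *ptges*-KO cells (adjusted p = 0.253 and 0.539). *Nrp2*, a co-receptor for VEGF-C, was the most abundant receptor mRNA, with group means of 112 to 129 RPKM and no change against scramble that passed (adjusted p = 0.964, 0.274, and 0.649).

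Both PDGF receptors were lower in the *ptgs2*-KO and *ptges*-KO lines. *Pdgfra* was at 8.06, 7.82, and 8.37 RPKM in scramble, at 10.38, 11.05, and 9.86 in *ptgs1*-KO, at 4.30, 3.64, and 3.36 in *ptgs2*-KO, and at 5.83, 5.24, and 5.00 in *ptges*-KO samples. The groups did not overlap, and *Pdgfra* fell in *ptgs2*-KO (log2 fold change -0.93, adjusted p = 6.6e-05) and *ptges*-KO cells (-0.52, adjusted p = 0.0027), with 0.33 in *ptgs1*-KO cells (adjusted p = 0.0614). *Pdgfrb* was at 11.14, 9.17, and 15.08 RPKM in scramble, at 23.75, 16.40, and 13.09 in *ptgs1*-KO, at 6.54, 7.02, and 5.94 in *ptgs2*-KO, and at 7.10, 4.59, and 4.53 in *ptges*-KO samples. Scramble and *ptgs1*-KO samples overlapped and lay above the other lines. *Pdgfrb* fell in *ptgs2*-KO (-0.75, SE 0.21, adjusted p = 0.0399) and *ptges*-KO cells (-0.996, adjusted p = 0.0045), and was at 0.54 in *ptgs1*-KO cells (adjusted p = 0.147). Of the 5 receptors tested, 1 rose and 1 fell in *ptgs1*-KO cells, and 0 rose and 3 fell in each of *ptgs2*-KO and *ptges*-KO cells. Of all genes tested, 9.26% changed in *ptgs1*-KO cells, 5.17% fell in *ptgs2*-KO cells, and 14.4% fell in *ptges*-KO cells. *Pdgfra* and *Pdgfrb* are also the main terms of the fibroblast and pericyte marker sum given above.

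**Figure D3:**
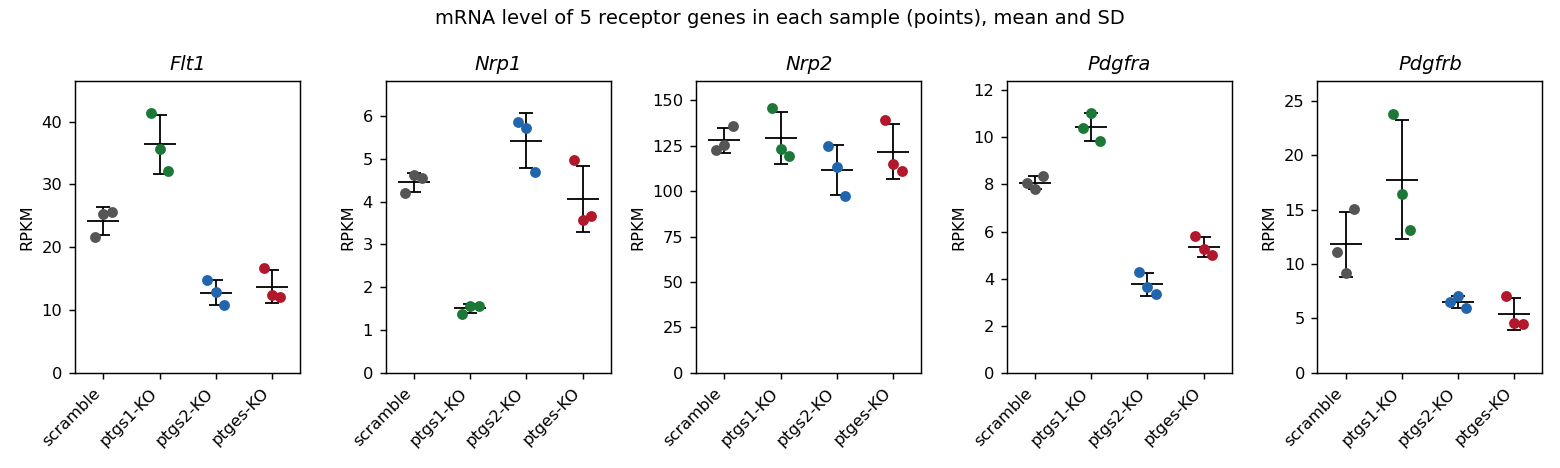
RPKM (vertical axes from 0, each with its own scale) of the 5 tested receptor genes in each sample, as points by group, with the mean as a bar and the SD as whiskers (n = 3). *Flt1* is highest in the *ptgs1*-KO samples, at 32.15 to 41.35 RPKM, and *Nrp1* is lowest there, at 1.38 to 1.57 RPKM.

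Other angiogenic ligands, a list of 17 with 10 tested, changed in both directions, with 2 higher and 2 lower in *ptgs1*-KO, 2 higher and 3 lower in *ptgs2*-KO, and 3 higher and 2 lower in *ptges*-KO cells, beside 9.26%, 11.1%, and 26.3% of all genes tested in either direction. *Adm*, which encodes the vasodilator adrenomedullin, was at 5.19 ± 0.495 RPKM in scramble (SD, n = 3), 0.0667 ± 0.0577 in *ptgs1*-KO, 0.137 ± 0.0404 in *ptgs2*-KO, and 57.5 ± 5.92 in *ptges*-KO cells. It fell in both COX knockouts (log2 fold changes -2.54 and -2.44, adjusted p = 1.08e-08 and 1.22e-08) and rose in *ptges*-KO cells (3.24, adjusted p = 8.31e-10). *Angptl2*, an angiopoietin-like protein, fell from 411 ± 6.14 RPKM in scramble to 297 ± 24.1 in *ptgs2*-KO (-0.47, adjusted p = 0.00459) and 191 ± 9.04 in *ptges*-KO cells (-1.10, adjusted p = 2.06e-06). *Pdgfd*, a further PDGF ligand, rose in *ptgs1*-KO (0.51, adjusted p = 0.0157) and *ptges*-KO cells (0.88, adjusted p = 0.000206). *Pdgfc* fell in *ptgs1*-KO (-0.59, adjusted p = 0.00137) and *ptges*-KO (-0.39, adjusted p = 0.00882) and rose in *ptgs2*-KO cells (0.35, adjusted p = 0.0309).

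Of 14 angiogenesis inhibitors, 8 were tested, and 2 rose in *ptgs1*-KO, 2 fell in *ptgs2*-KO, and 4 fell in *ptges*-KO cells, with 0 changed in the other direction. The shares of all genes tested were 4.65% higher in *ptgs1*-KO, 5.17% lower in *ptgs2*-KO, and 14.4% lower in *ptges*-KO cells. *Serpinf1*, the gene of pigment epithelium-derived factor, rose from 0.747 ± 0.437 to 6.79 ± 0.721 RPKM in *ptgs1*-KO cells (log2 fold change 2.19, adjusted p = 2.85e-06). *Col18a1*, the source of endostatin, fell from 13.3 ± 0.465 to 2.81 ± 0.136 RPKM in *ptges*-KO cells (-1.91, adjusted p = 2.46e-07), as did *Sema3a* (-1.32, adjusted p = 2.18e-05), a semaphorin that binds *Nrp1*. *Sema3f*, a ligand of *Nrp2*, rose in *ptgs1*-KO (0.93, adjusted p = 0.000854) and fell in *ptgs2*-KO cells (-1.03, adjusted p = 0.000466).

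Genes that process or release these ligands, 12 of which 6 were tested, showed 1 fall in *ptgs1*-KO, 2 in *ptgs2*-KO, and 3 in *ptges*-KO cells, and 0 rises, beside 4.61%, 5.17%, and 14.4% of all genes tested that fell. *Plat*, tissue plasminogen activator, fell in *ptgs2*-KO (log2 fold change -0.71, adjusted p = 0.00137) and *ptges*-KO cells (-1.30, adjusted p = 3.67e-06), and *Hpse*, heparanase, fell in *ptgs2*-KO cells (-0.64, adjusted p = 0.000231). *Pcsk7*, a proprotein convertase, fell in *ptges*-KO cells (-0.46, adjusted p = 0.00853). *Mmp14*, a membrane-bound metalloprotease, fell in *ptgs1*-KO (-0.41, adjusted p = 0.0266) and *ptges*-KO cells (-0.30, adjusted p = 0.0488).

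Hypoxia-inducible factor targets were counted because *Vegfa*, *Angptl4*, and *Apln* are known among them. Of 16 other targets tested, 0 rose and 9 fell in *ptgs1*-KO cells, 1 rose and 2 fell in *ptgs2*-KO cells, and 12 rose and 1 fell in *ptges*-KO cells. Of all genes tested, 4.65% rose and 4.61% fell in the first, 5.97% and 5.17% in the second, and 11.9% and 14.4% in the third line. For the 16 targets the median log2 fold changes were -0.35, -0.048, and 0.47, and for all genes tested 0.0069, 0.0088, and -0.030. In *ptges*-KO cells *Pgk1*, a glycolytic kinase, rose from 1000 ± 9.77 to 2170 ± 132 RPKM (log2 fold change 1.11, adjusted p = 5.42e-07), *Bnip3*, a mitophagy receptor, from 105 ± 2.12 to 214 ± 7.99 RPKM (1.02, adjusted p = 4.54e-06), and *Ndrg1* from 50.4 ± 2.93 to 103 ± 4.85 RPKM (1.01, adjusted p = 2.19e-06). *Adm*, described above, is on this list as well. The target that fell in *ptges*-KO cells was *Pfkfb4* (-0.48, adjusted p = 0.0176). *Car9*, a listed target under the filter on low values and so not tested, was at 0.79 ± 0.213 RPKM in scramble. It was at 0.0633 ± 0.0777 in *ptgs1*-KO, 0.0933 ± 0.0551 in *ptgs2*-KO, and 0.0467 ± 0.0404 in *ptges*-KO cells. The log2 fold change of *Vegfa* in *ptges*-KO cells was -0.050, with an interval that ended at 0.15, and that of *Apln* was 0.32. *Angptl4*, under the filter, had a mean of 0.04 RPKM there and 0.16 in scramble cells. With no filter its log2 fold change was -0.15 (limma adjusted p = 0.167), on few reads. Among 7 tested genes of oxygen sensing, *Egln3*, a prolyl hydroxylase, fell in all 3 lines (-1.82, -1.66, and -0.46, adjusted p = 4.73e-07, 1.62e-06, and 0.0132), and *Egln1* rose in *ptges*-KO cells (0.44, adjusted p = 0.00311).

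**Figure D4:**
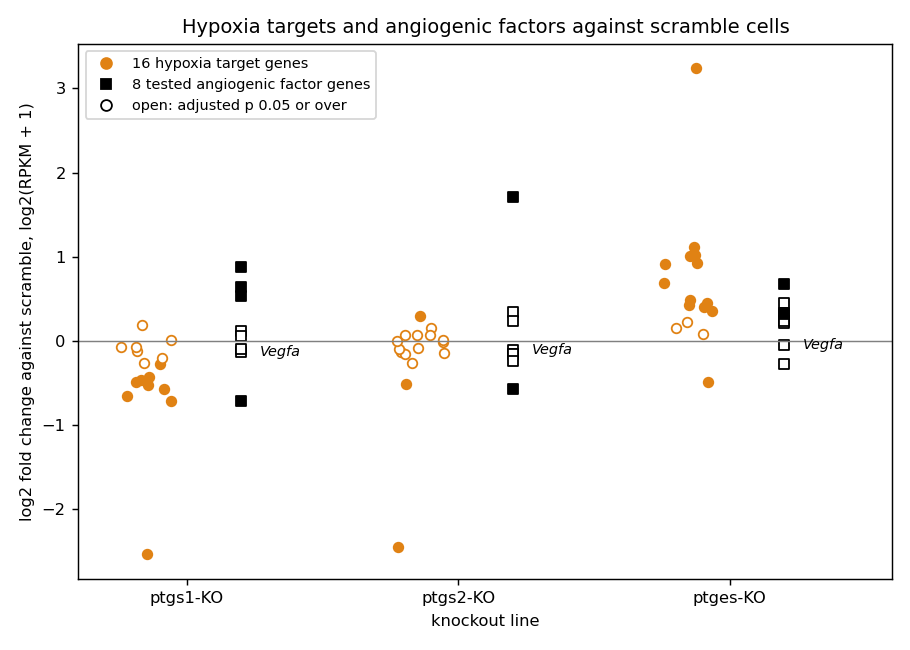
Log2 fold changes against scramble cells (vertical axis, on log2(RPKM + 1)) of 16 hypoxia-inducible factor targets (circles, spread sideways for view) and of the 8 tested angiogenic factor genes (squares) in each knockout line, filled at an adjusted p under 0.05. Of the 16 targets, 12 rose in *ptges*-KO cells, beside 11.9% of all genes tested, and *Vegfa* is at -0.050.

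*Angptl4* is also a target of PPAR transcription factors, and of 7 tested PPAR pathway genes 0 changed in *ptgs1*-KO cells, 1 fell in *ptgs2*-KO cells, and 1 rose in *ptges*-KO cells, beside 9.26%, 11.1%, and 26.3% of all genes tested that changed. *Plin2*, a lipid droplet protein, rose in *ptges*-KO cells (log2 fold change 0.83, adjusted p = 1.16e-06), and *Acadvl*, a fatty acid oxidation enzyme, fell in *ptgs2*-KO cells (-0.37, adjusted p = 0.00625).

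The genes with the pattern most like those of *Vegfa* and *Pgf* over the 12 samples were ranked by Pearson's r of log2(RPKM + 1) among all genes tested, as a description in which genes share the same libraries. For *Vegfa* they were *Dmwd* (r = 0.88), *Hist2h3c1* (0.85), *Lonrf3* (0.84), *Sgsm3* (0.83), and *Itch* (0.83). For *Pgf* they were *Ptk7* (0.98), *Thsd4* (0.95), *Zfp955a* (0.95), *Hspbap1* (0.95), and *Pigl* (0.94). *Ptk7*, which encodes a pseudokinase receptor, was at 4.85 RPKM in scramble, 5.94 in *ptgs1*-KO, 14.5 in *ptgs2*-KO, and 3.15 in *ptges*-KO cells, the same order of lines as *Pgf*.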

How the data were processed

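RNA-seq values of 12 samples, 3 in each of 4 groups assigned by their labels, were analyzed. The deposited RPKM, with 2 decimals, were computed by the authors from paired reads of 101 bp. The build is mm10 per the submitters' processing notes, and the aligner, counter, and annotation are not given in the sources used here. The labels name both an unstranded and a directional library kit. The methods of the study call the values normalized counts, and their near-constant sum leaves another scaling possible. The 10 genes and all gene lists were chosen with earlier results of these data known.

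Values were analyzed as log2(RPKM + 1), with a pseudocount of 1, in R 4.3.3 with limma 3.58.1 (lmFit and trended eBayes on all 12 samples). Genes whose mean reached 1 RPKM entered the test and p-values were adjusted by Benjamini-Hochberg over all 11282 of them, at a threshold of 0.05, in 6 comparisons. The study used one-way analysis of variance with Tukey's test on single genes, which was kept as an alternative for the counts. Other alternatives were a pseudocount of 0.1, no filter, a filter at a mean of 10, median ratio scaling, quantile normalization, a replicate block, only the groups compared, no trend, a minimum log2 fold change of 0.5, and each sample left out. Scaling without the 20 highest genes was chosen after seeing the data. The fit was tested on simulated data.

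Depth was estimated from the steps of low values and GENCODE M21 transcript lengths, and reads per gene are approximate, so no counting intervals are given. Positions are on GRCm38 and promoters from RefSeq. Named genes were the 10 factors, the edited genes, up to 4 genes per list with the largest change among those that passed against scramble, and the 5 most alike in pattern to *Vegfa* and to the factor with the widest range. Genes outside this rule, such as receptors and markers at 0, *Figf*, *Pfkfb4*, and *Car9*, were named after their values were seen. Figures were drawn with Python 3.11.15 and matplotlib 3.10.9.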

Additional observations from a re-analysis of the deposited data

Results flagged for a closer look

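The change of *Pdgfb* against scramble differed between lines in direction. Each line was selected and subcloned on its own, so the edit and the line cannot be told apart. Against the scramble samples, which the lines share, *Pdgfb* rose by 0.88 on the log2 scale in *ptgs1*-KO and by 0.67 in *ptges*-KO cells, and its level fell in *ptgs2*-KO cells (-0.57). That fall was lost without scramble replicate 2 or 3 or *ptgs2*-KO replicate 2 or 3 (limma adjusted p = 0.0597 to 0.0715), and *Pdgfb* passed the filter on low values only with its highest group, *ptgs1*-KO. The difference between these changes was -1.45 for *ptgs2*-KO minus *ptgs1*-KO (limma adjusted p = 5.92e-06) and 1.24 for *ptges*-KO minus *ptgs2*-KO cells (limma adjusted p = 3.68e-05). A gene was flagged only if both lines passed against scramble in opposite directions and differed from each other. These p-values are thus part of the rule and no further test. All 3 samples of each line lay on the side of scramble given by these directions.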

How the results depend on the processing

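Of 48 log2 fold changes (8 genes in 6 comparisons), 21 passed the test, 14 of these passed under every alternative that could test them, 7 were lost under at least 1, and 9 of the 27 others passed under at least 1. None of the 21 changed direction. With a filter at a mean of 10, which leaves out all but the abundant genes, the counts of changed genes were 0, 0, and 0 for *ptgs1*-KO, *ptgs2*-KO, and *ptges*-KO against scramble, and 1, 0, and 1 for *ptgs2*-KO against *ptgs1*-KO, *ptges*-KO against *ptgs1*-KO, and *ptges*-KO against *ptgs2*-KO cells. With only the groups compared in the model, which has fewer samples, the count was 1 instead of 4 for *ptgs1*-KO against scramble and 3 instead of 5 for *ptgs2*-KO against *ptgs1*-KO. For *ptges*-KO against scramble it was 5 by median ratio scaling, 6 by quantile normalization, and 1 at a log2 fold change of at least 0.5 instead of 2, and the last limit gave 3 instead of 5 for *ptges*-KO minus *ptgs2*-KO. The cause was not tested for the scalings. With each of the 12 samples left out in turn, the counts ranged from 1 to 4, 1 to 2, and 2 to 4 for *ptgs1*-KO, *ptgs2*-KO, and *ptges*-KO against scramble, and from 4 to 5, 3 to 4, and 4 to 5 for the comparisons between knockouts in the order above. The count for *ptgs1*-KO against scramble was 1 without scramble replicate 2 and 2 without *ptgs1*-KO replicate 2, that for *ptgs2*-KO was 1 without scramble replicate 2 or 3 or *ptgs2*-KO replicate 2 or 3, and that for *ptges*-KO was 4 without *ptgs1*-KO replicate 1.

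The share of higher genes among all changed genes was 45.2% for *ptges*-KO against scramble and 30.9% when scaled without the 20 highest genes, 43.8% and 30.4% for *ptges*-KO against *ptgs1*-KO, and 40.7% and 28.3% for *ptges*-KO against *ptgs2*-KO cells, while median ratio scaling gave 54.5%, 53.7%, and 51.7%, a majority of higher genes in each. No scaling moved the median log2 fold change of all genes by more than 0.071.

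Same-numbered samples of different lines did not regularly deviate together, with correlations of -0.34 to 0.57 in 18 pairs (mean 0.0123), and 5 of 12 samples correlated best with their own number. With the replicate number as a block, *Angpt2* in *ptges*-KO against *ptgs2*-KO cells was lost (log2 fold change 0.49, limma adjusted p = 0.0519), and no other call changed. Depth limits *Vegfc*, *Pdgfb*, *Angpt1*, and *Angptl4*, which rest on 10 or fewer reads in at least 1 sample.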
